A study of Mus musculus with 12 samples.

Results

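The 26 genes described here make cholesterol from acetyl-CoA and control that synthesis through the sterol regulatory element binding proteins (SREBPs). They were found by symbol, and each matched 1 of the 54446 gene identifiers in the count tables. There were 20 enzymes. The mevalonate steps held 5 of them (Acat2, Hmgcs1, Mvk, Pmvk and Mvd) and the isoprenoid and squalene steps 5 more (Idi1, Fdps, Ggps1, Fdft1 and Sqle). The ring closure and later sterol steps held 10 (Lss, Cyp51, Tm7sf2, Lbr, Msmo1, Nsdhl, Hsd17b7, Ebp, Sc5d and Dhcr7). The 5 control genes were Srebf1, Srebf2, Scap, Insig1 and Insig2, and Stard4 encodes a sterol transfer protein. RNA was sequenced from hippocampus and cerebellum of 3 mice labelled SYT14 knockout (Syt14-/-) and 3 wild-type (Syt14+/+) mice, which gave 4 groups of 3 libraries. By the animal numbers in the labels, both tissues came from the same 6 mice. No treatment is named, while sex, age, strain and the altered part of the gene were not given in the sources used here. This series asks how loss of the synaptotagmin family member Syt14 bears on mood-related behaviour and motor coordination.

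Cells build cholesterol by a long chain of enzymes that runs from acetyl-CoA through mevalonate, isoprenoids and squalene to the sterol ring. SREBPs are made as membrane precursors. When sterols are low, Scap carries them to the Golgi, where they are cut and released to switch on the enzymes; when sterols are high, Insig proteins hold Scap and SREBP back in the endoplasmic reticulum. The adult brain makes its own cholesterol because lipoproteins of the blood do not cross the blood-brain barrier, and astrocytes and oligodendrocytes are known as its main producers.

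Promoter windows of these genes are shown because SREBPs bind short sterol response elements there, usually beside sites of the partners NF-Y (CCAAT box) and Sp1 (GC box). RefSeq windows of GRCm38.p6, each 300 bases around a start site, were at hand for 22 of the 26 genes. The motif TCACNCCAC, searched on both strands, was in 1 of these 22 genes, Hmgcs1, and in 1.44% of all 27025 genes with a window. In Hmgcs1 it lay at positions -137 to -129 from the start site. Only exact matches were searched, so a sterol response element that differs from the motif by a letter would not be found. The E-box form TCACNTGA was in 1 of the 22, Insig2, and in 4.78% of all genes. CCAAT was in 20 of the 22 genes, against 41.1% of all genes and 42.3% of those that passed the count filter. GGGCGG was also in 20 of the 22, against 38.2% of all genes and 65.0% of those that passed it. The motifs do not overlap each other in the printed windows. The Hmgcs1 promoter is printed because it carried the SREBP motif. The other 4 were chosen after their values were seen, as genes that the results below turn on. Letters in capitals are the SREBP motif TCACNCCAC, the CCAAT box (ATTGG on the opposite strand) and the GC box (CCGCCC on the opposite strand), parts in annotated exons are left out, and each sequence runs 5′ to 3′ on the strand of its gene.
Hmgcs1 (chr13:119690101-119690350, plus strand): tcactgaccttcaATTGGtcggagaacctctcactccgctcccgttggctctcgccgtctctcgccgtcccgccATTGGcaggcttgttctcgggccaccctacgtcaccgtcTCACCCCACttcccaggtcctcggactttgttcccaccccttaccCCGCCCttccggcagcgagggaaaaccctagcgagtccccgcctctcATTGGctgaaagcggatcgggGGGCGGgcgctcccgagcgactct
Cyp51 (chr5:4104747-4104947, minus strand): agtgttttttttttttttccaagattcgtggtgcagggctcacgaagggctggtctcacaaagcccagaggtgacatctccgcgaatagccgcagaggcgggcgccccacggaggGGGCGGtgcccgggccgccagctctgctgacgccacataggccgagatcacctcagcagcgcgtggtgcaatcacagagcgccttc
Mvd (chr8:122443423-122443672, minus strand): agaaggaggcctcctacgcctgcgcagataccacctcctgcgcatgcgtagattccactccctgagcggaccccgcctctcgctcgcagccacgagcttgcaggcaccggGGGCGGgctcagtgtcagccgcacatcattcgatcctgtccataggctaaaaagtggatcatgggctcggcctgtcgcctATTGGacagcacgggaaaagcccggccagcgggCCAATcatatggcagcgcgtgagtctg
Srebf2 (chr15:82147019-82147180, plus strand): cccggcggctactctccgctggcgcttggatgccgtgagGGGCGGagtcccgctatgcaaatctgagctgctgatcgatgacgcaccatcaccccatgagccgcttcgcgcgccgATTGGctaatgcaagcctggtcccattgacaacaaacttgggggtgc
Ebp (chrX:8193513-8193762, minus strand): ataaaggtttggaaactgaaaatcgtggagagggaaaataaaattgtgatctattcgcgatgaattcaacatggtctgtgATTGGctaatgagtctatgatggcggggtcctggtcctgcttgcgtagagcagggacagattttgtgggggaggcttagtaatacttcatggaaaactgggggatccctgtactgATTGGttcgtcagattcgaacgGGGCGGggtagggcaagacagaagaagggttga
The printed stretch of Hmgcs1 holds 3 CCAAT boxes and 2 GC boxes, that of Mvd 2 and 1, that of Ebp 2 and 1, that of Srebf2 1 and 1, and that of Cyp51 0 and 1. These counts leave out the parts of the windows that are not printed. There, Cyp51 has a CCAAT box at positions -29 to -25 and Hmgcs1 has one at 10 to 14. Further GC boxes lie there at 32 to 37 in Hmgcs1, and at -79 to -74, -52 to -47, -34 to -29 and 19 to 24 in Srebf2. A match of letters is a description of the sequence and shows no binding.

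Library totals were 24355572 to 34971359 counts, and 3 counts, taken as the limit of detection for counting error, equalled 0.0858 to 0.123 CPM (counts scaled to a common library total). Levels below are normalized CPM, which is CPM adjusted with the trimmed mean of M-values (TMM) over all 12 libraries. Syt14 itself was lower in the libraries labelled knockout but far from absent. The hippocampus had 29.2, 28.02 and 30.6 normalized CPM with the knockout label, against 38.5, 38.9 and 38.2 in the wild type (log2 difference -0.39, adjusted p = 0.686 by edgeR's quasi-likelihood test). The cerebellum had 30.6, 30.7 and 30.3 with that label, against 33.8, 33.4 and 38.2 in the wild type (log2 difference -0.20, adjusted p = 0.644 by the same test). The groups did not overlap in either tissue. Marker sums followed the tissue labels. The 10 hippocampal neuron markers summed to 1819 to 2048 normalized CPM in the hippocampus and 797 to 955 in the cerebellum. The 10 cerebellar neuron markers summed to 160 to 204 in the hippocampus, with Gabra6 at 0 in the knockout there, and to 6892 to 7753 in the cerebellum.

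All 26 genes were expressed in both tissues and passed the count filter in every comparison. Levels were compared between genes per kilobase of annotated exon. In the wild-type hippocampus Hmgcs1, the synthase at the entry of the mevalonate pathway, stood highest at 46.5 ± 3.59 normalized CPM per kilobase (SD, n = 3). It was followed by Srebf2, which encodes the SREBP of the cholesterol genes, at 35.7 ± 1.21, and by Insig1, an SREBP retention protein, at 21.3 ± 1.75. These ranks did not overlap from library to library. Next came Sc5d, a late sterol desaturase, at 17.0 ± 0.658, then Fdft1, squalene synthase, at 15.1 ± 0.928 and Cyp51, the lanosterol demethylase, at 14.2 ± 0.601. The libraries of Fdft1 and Cyp51 overlapped, so their order was within the spread. At the low end lay Lss, the cyclase that closes the sterol ring, at 4.13 ± 0.0118, Tm7sf2, a sterol reductase, at 3.74 ± 0.400 and Lbr, a nuclear envelope protein with the same reductase activity, at 3.40 ± 0.226. The ranges of Tm7sf2 and Lbr overlapped. These ranks depend on the exon length used, the union of annotated exons, which was longest for Lss at 10787 bases. Without division by length, Lss was at 44.5 normalized CPM in the wild-type hippocampus, above Dhcr7 at 31.6 and Hsd17b7 at 26.6. Tm7sf2 was then at 16.5 and Lbr at 16.2.

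In the wild-type cerebellum the order at the top differed. Insig1 stood at 29.9 ± 2.32 normalized CPM per kilobase (SD, n = 3), Hmgcs1 at 27.0 ± 1.14 and Srebf2 at 22.9 ± 0.312. The libraries of Insig1 and Hmgcs1 overlapped, while those of Srebf2 lay below both. Sc5d followed at 18.8 ± 0.587. Fdps, which makes farnesyl diphosphate, was listed far below all other members, at 0.379 ± 0.0372 per kilobase in the wild-type hippocampus and 0.272 ± 0.0441 in the wild-type cerebellum. Its count is uncertain. In GENCODE M21, 1124 of its 4208 exon bases are shared on the same strand with the gene model Gm43738, which had 0 counts in all libraries. Whether this overlap bears on the low count of Fdps was not tested. Tm7sf2 shares 532 exon bases on the same strand with Vps51. Exons of Fdft1 overlap those of Ctsb on the opposite strand over 774 bases, those of Scap overlap 5830462I19Rik over 985, and the counting's strand setting was not given in the sources used here.

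**Figure D1:**
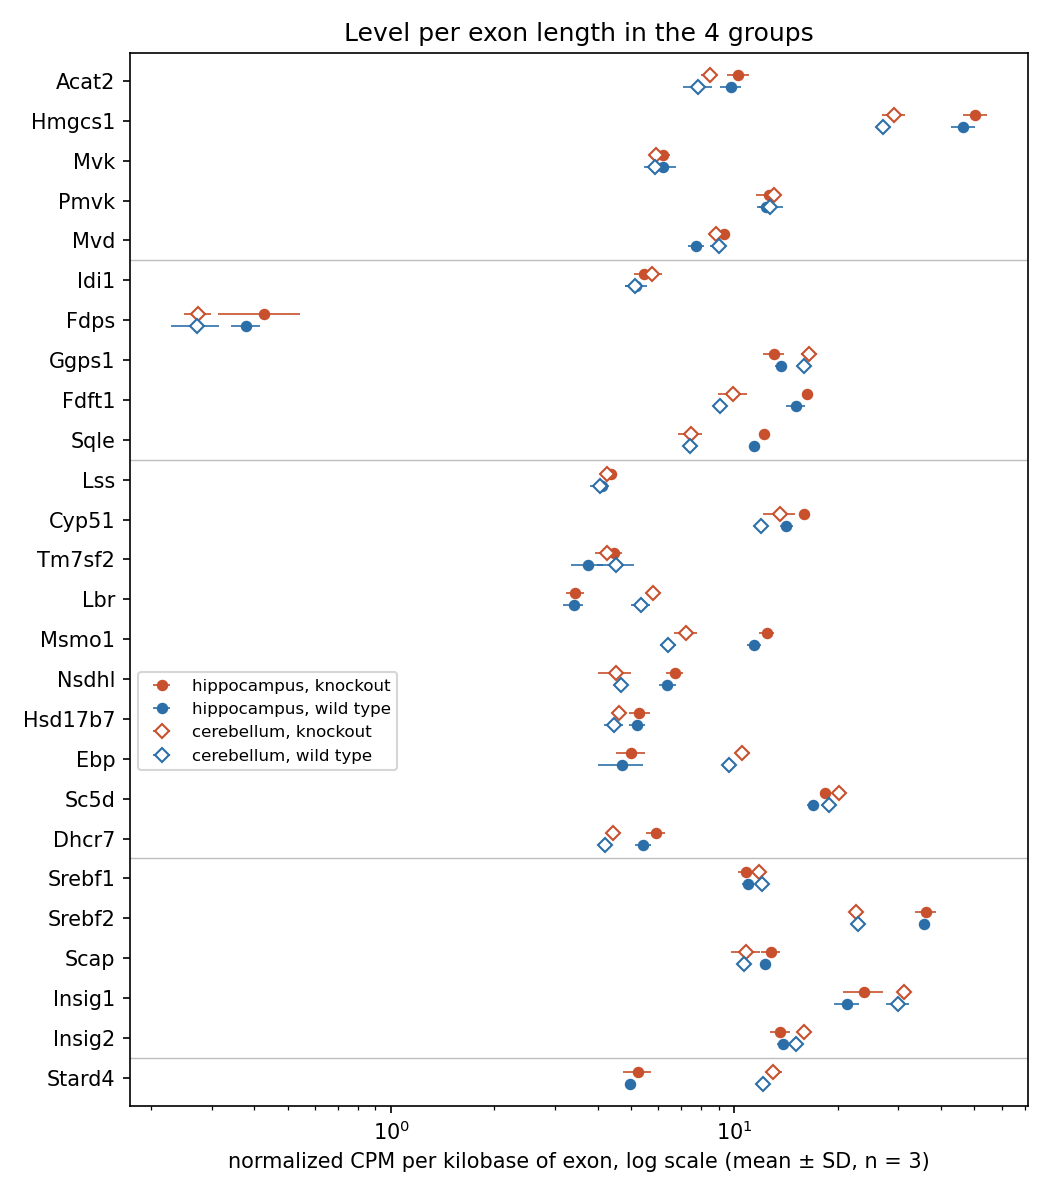
Level of each gene per exon length in the 4 groups, as normalized CPM per kilobase on a log axis, with points at the mean and bars for the SD over 3 libraries. Grey lines separate mevalonate steps, isoprenoid and squalene steps, ring and later sterol steps, SREBP control and Stard4; Hmgcs1 and Srebf2 lie farthest right in the hippocampus and Fdps far to the left of all others.

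The ratio between the SREBP genes also differed by tissue. Per length, Srebf2 exceeded Srebf1, which encodes the SREBP better known for fatty acid genes, by 3.16-, 3.27- and 3.39-fold in the 3 wild-type hippocampus libraries and by 1.92-, 1.89- and 1.89-fold in the 3 wild-type cerebellum libraries. In the knockout the ratio was 3.33, 3.29 and 3.39 in the hippocampus and 2.03, 1.87 and 1.86 in the cerebellum. The ratio was thus higher in each of the 6 hippocampus libraries than in any cerebellum library, with no separation of the genotypes. Insig1 exceeded Insig2 per length by 1.54 ± 0.171-fold in the wild-type hippocampus and by 1.98 ± 0.190-fold in the wild-type cerebellum (SD, n = 3). In the knockout this ratio was 1.58, 1.61 and 2.11 in the hippocampus libraries and 2.01, 1.88 and 1.99 in the cerebellum ones, which overlapped. Ebp, the sterol isomerase, stood per length at 0.414 ± 0.0785 of the level of Msmo1, the sterol methyl oxidase, in the wild-type hippocampus and at 1.51 ± 0.114 of it in the wild-type cerebellum. Which of the genes is higher depends on their exon lengths of 2310 and 6144 bases. Without division by length, Ebp lay below Msmo1 in both tissues, at 10.9 against 70.3 and 22.3 against 39.4 normalized CPM.

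Between hippocampus and cerebellum genes of the pathway were called in both directions, as were genes at large. In the wild type 20 of the 26 genes passed an adjusted p of 0.05, 11 higher and 9 lower in the hippocampus, where 66.1% of all 18128 genes tested passed, 33.1% higher and 33.0% lower. In the knockout 18 passed, 11 higher and 7 lower, where 64.1% of 18200 passed, 31.6% higher and 32.5% lower. The members' shares, 76.9% and 69.2%, were thus near those of all genes. The calls come from edgeR's quasi-likelihood test with Benjamini-Hochberg adjustment over all genes tested, log2 differences are hippocampus minus cerebellum, and the wild-type and knockout comparisons share no library. The tissues of a mouse were not paired in this test, so the SEs and p-values below are unpaired. With the animal as a block, 20 members passed in the wild type and 18 in the knockout. The hippocampus columns all carry the tag L1 in the file headers and the cerebellum columns the tag L4, whose meaning is not stated there, so tissue and tag cannot be told apart. In bulk tissue, fewer cells of a type and less RNA per cell cannot be told apart either.

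Hmgcs1 was at 206, 202 and 232 normalized CPM in the wild-type hippocampus and at 123, 120 and 130 in the wild-type cerebellum. In the knockout it was at 222, 219 and 252 in the hippocampus and at 144, 134 and 124 in the cerebellum. All 6 hippocampus libraries lay above all 6 cerebellum libraries. The log2 difference was 0.78 ± 0.058 in the wild type (SE, adjusted p = 7.98e-08, edgeR) and 0.78 ± 0.072 in the knockout (adjusted p = 9.49e-06). Msmo1, which removes methyl groups from the ring, was at 66.6, 71.2 and 73.1 in the wild-type hippocampus and at 37.9, 38.6 and 41.7 in the wild-type cerebellum. Its knockout libraries were at 75.2, 73.3 and 80.4 in the hippocampus and at 47.6, 44.7 and 40.8 in the cerebellum. It was the enzyme with the largest difference in this direction in the wild type, with log2 differences of 0.84 ± 0.058 (adjusted p = 4.12e-08, edgeR) and 0.78 ± 0.067 in the knockout (adjusted p = 5.56e-06).

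Srebf2 was the control gene with the largest difference towards the hippocampus in both genotypes. It was at 258, 247.5 and 265 normalized CPM in the wild-type hippocampus, against 167, 162.5 and 163 in the wild-type cerebellum. The knockout libraries were at 258, 242 and 278 in the hippocampus and at 168, 157 and 163 in the cerebellum. Its log2 difference was 0.65 ± 0.044 in the wild type (adjusted p = 3.46e-08, edgeR) and 0.67 ± 0.059 in the knockout (adjusted p = 6.48e-06). Scap, the escort of the SREBPs, was higher in the hippocampus by 0.20 and 0.23 on the log2 scale. Srebf1 differed by -0.14 in the wild type, which passed, and by -0.13 in the knockout, which did not. The other genes called higher in the hippocampus in both genotypes were Acat2, Fdft1, Sqle, Cyp51, Nsdhl, Hsd17b7 and Dhcr7, with log2 differences from 0.20 to 0.73. Fdft1 and Sqle, which make squalene and open the way to the ring, were at 0.73 and 0.62 in the wild type.

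Stard4, which carries sterol between membranes, was the member with the largest difference towards the cerebellum. It was at 28.6, 27.5 and 27.1 normalized CPM in the wild-type hippocampus and 70.7, 66.5 and 66.4 in the wild-type cerebellum. In the knockout it was at 27.8, 27.3 and 32.4 against 76.6, 68.4 and 72.7. The log2 differences of -1.29 ± 0.055 (adjusted p = 3.04e-10, edgeR) and -1.32 ± 0.075 (adjusted p = 3.19e-07) correspond to 2.44-fold and 2.49-fold lower levels in the hippocampus. Ebp was at 11.997, 11.7 and 8.98 against 22.4, 23.0 and 21.6 in the wild type, and at 11.6, 10.4 and 12.6 against 23.6, 23.7 and 25.8 in the knockout. Its log2 differences were -1.03 ± 0.11 (adjusted p = 2.04e-06, edgeR) and -1.08 ± 0.089 (adjusted p = 4.11e-06). Ebp acts a few steps after Msmo1 in the same chain, and these enzymes thus lay on opposite sides. Lbr was at 17.3, 16.1 and 15.2 against 24.0, 25.1 and 27.1 in the wild type, and at 15.8, 15.8 and 17.5 against 27.99, 26.7 and 28.1 in the knockout. Its log2 differences were -0.65 and -0.76, whereas Tm7sf2, with the same reductase activity, was at -0.27 in the wild type and 0.07 in the knockout.

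Insig1 and Insig2, which hold the SREBP complex back, both lay towards the cerebellum, opposite to Srebf2 and Scap. Insig1 was at 66.6, 59.9 and 70.6 normalized CPM in the wild-type hippocampus and 89.4, 87.4 and 101 in the wild-type cerebellum (log2 difference -0.49). Insig2 was at 49.7, 48.4 and 46.0 against 53.4, 52.8 and 51.5. The groups of Insig2 did not overlap, but its log2 difference of -0.13 did not pass in the wild type (adjusted p = 0.0521, edgeR), while -0.23 passed in the knockout. Ggps1, which makes the geranylgeranyl lipid of the side branch, and Sc5d were also called lower in the hippocampus in both genotypes, with log2 differences from -0.35 to -0.14. The remaining 5 genes, Mvk, Pmvk, Idi1, Fdps and Lss, were called in neither genotype.

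In all, 11 genes were called higher and 6 lower in the hippocampus in both genotypes, where 58.3% of 17774 genes were called in the same direction in both. Some of the smaller differences kept their direction but lost their call under an alternative. In the wild type the calls of Mvd and Tm7sf2 were lost with DESeq2, that of Mvd also with DESeq-type size factors or no count filter, and both when single libraries were left out: Mvd without any 1 of the 3 hippocampus libraries or without cerebellum library 1 or 3 (log2 -0.26 to -0.17 over all left-out libraries), and Tm7sf2 without hippocampus library 2 or 3 or cerebellum library 1 or 2 (-0.38 to -0.19). Srebf1 lost its wild-type call with DESeq2 and without hippocampus library 2 or 3 or cerebellum library 1, Hsd17b7 without library 2 of either tissue, and Sc5d without hippocampus library 3 or cerebellum library 1. In the knockout Hsd17b7 lost its call with DESeq2, with no count filter and without any library but hippocampus library 2, Sc5d with DESeq2 and without hippocampus library 1 or 3 or cerebellum library 2, Scap without hippocampus library 1 or cerebellum library 1 or 2, and Cyp51 without hippocampus library 1. Over all left-out libraries the wild-type log2 difference was -0.17 to -0.11 for Srebf1, 0.17 to 0.27 for Hsd17b7 and -0.17 to -0.12 for Sc5d. The knockout one was 0.17 to 0.26 for Hsd17b7, -0.15 to -0.12 for Sc5d, 0.18 to 0.32 for Scap and 0.15, without cerebellum library 3, to 0.30 for Cyp51. Srebf1 passed in the knockout without hippocampus library 3, and Fdps without hippocampus library 2 or with a filter of at least 1 CPM in 3 libraries.

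Cell type markers, among them those of the main sterol producers named above, also differed between the tissues, in both directions. Of all genes tested, 33.1% were called higher and 33.0% lower in the wild-type hippocampus. Of the 10 astrocyte markers, 3 were called higher and 6 lower in the wild-type hippocampus, with a summed level of 4634 to 5209 normalized CPM there and 3555 to 3998 in the wild-type cerebellum. Of the 10 oligodendrocyte precursor markers, 7 were higher and 3 lower, with sums of 353 to 397 and 227 to 240. Of the 13 oligodendrocyte and myelin markers, 4 were higher and 2 lower, and their sums of 5346 to 7128 and 5958 to 6357 overlapped. The 10 microglia markers were all higher, with sums of 313 to 362 and 127 to 135. Of the 10 neuron markers, 5 were higher and 3 lower, with sums of 7729 to 8255.5 and 5455 to 5758.5. No marker of these lists was at 0, and their part in the tissue differences of the pathway was not tested.

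**Figure D2:**
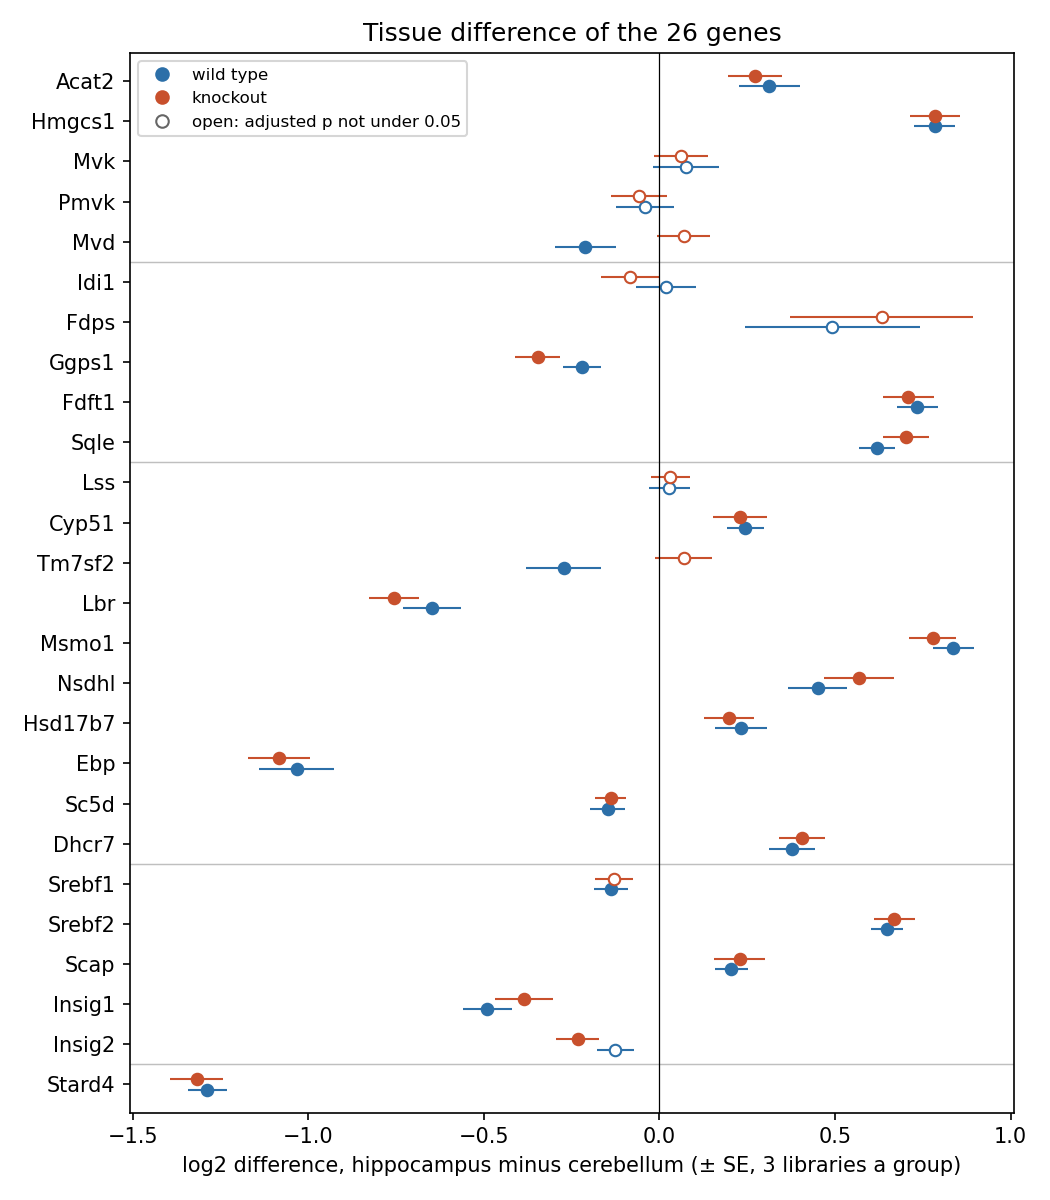
Log2 difference of each gene, hippocampus minus cerebellum, in wild type and knockout, with bars for the SE over 3 libraries a group; open points did not pass an adjusted p of 0.05. Hmgcs1, Fdft1, Sqle, Msmo1 and Srebf2 lie right of zero and Lbr, Ebp and Stard4 left of it in both genotypes, while Mvd, Tm7sf2 and Idi1 change side.

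Knockout and wild type were compared within each tissue. In the hippocampus none of the 26 genes passed an adjusted p of 0.05, and 0.0% of all 17693 genes did. The number of genes at an unadjusted p under 0.05 was 767, and the number called was 2 with DESeq2 and 0 with limma-voom. The members' adjusted p-values were 0.995 to 0.999 (edgeR). Small differences nevertheless lay mostly on the higher side in the knockout: 23 of the 26 log2 differences were above 0, where 50.8% of all genes were. The members were chosen with earlier results of these data known, and all were measured in the same libraries. This count and those of members below are therefore neither independent observations nor a test of the set. The median was 0.081 over the members and 0.0017 over all genes tested. By role, 10 of 10 ring and later sterol enzymes were above 0 with a median of 0.10, 5 of 5 mevalonate enzymes with a median of 0.073, 4 of 5 isoprenoid and squalene enzymes with a median of 0.098, and 3 of 5 control genes with a median of 0.017.

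Cyp51, encoded at chr5:4081145-4104746 on the minus strand (GRCm38), had the smallest unadjusted p of the members. It was at 71.4, 68.3 and 71.9 normalized CPM in the knockout hippocampus and at 65.6, 61.0 and 61.0 in the wild type, and each knockout library lay above each wild-type library. The log2 difference was 0.18 ± 0.052 (SE, unadjusted p = 0.00542, adjusted p = 0.995, edgeR). Mvd, the decarboxylase that ends the mevalonate steps (chr8:122433601-122443422, minus strand), was at 17.4, 17.9 and 16.6 in the knockout and at 14.9, 13.5 and 14.8 in the wild type. Its log2 difference of 0.27 ± 0.085 was the largest of the members in this tissue (unadjusted p = 0.00854, adjusted p = 0.995, edgeR). Tm7sf2 was at 20.6, 18.5 and 19.9 in the knockout and at 17.9, 14.5 and 17.1 in the wild type, with a log2 difference of 0.26 ± 0.093 (unadjusted p = 0.0171, adjusted p = 0.995, edgeR). Its shared exon bases with Vps51 make that count less certain. For these 3 genes the groups did not overlap.

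Cyp51, Lss, Msmo1, Mvd, Fdft1, Sc5d, Sqle and Tm7sf2 were higher in each knockout library than in each wild-type library. These are 8 of the 26 genes, where 5.13% of all genes had this pattern, and 0 of the 26 showed the reverse, which 4.68% of all genes did. At an unadjusted p under 0.05, 5 were higher (Cyp51, Mvd, Tm7sf2, Sc5d and Msmo1), where 2.57% of all genes were, and 0 were lower, where 1.77% were. The 8 span the chain from mevalonate to the late sterol steps and include none of the control genes. The limit given above for counts of members holds here as well.

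Of the control genes, Srebf1, Srebf2 and Insig2 lay within 1 SE of the wild type, and Insig1 had a difference as large as that of Cyp51. Srebf2 was at 258, 242 and 278 normalized CPM in the knockout hippocampus and 258, 247.5 and 265 in the wild type, with a log2 difference of 0.02 ± 0.053. Srebf1 was at 60.7, 57.7 and 64.4 against 63.9, 59.4 and 61.3, with a log2 difference of -0.01 ± 0.056. The groups overlapped for both. Insig1, itself a well-known SREBP target, was at 64.8, 72.9 and 84.2 in the knockout and at 66.6, 59.9 and 70.6 in the wild type, with a log2 difference of 0.17 ± 0.087. Insig2 was at 46.0, 50.8 and 44.7 against 49.7, 48.4 and 46.0, with a log2 difference of -0.02 ± 0.064. Ggps1 had the lowest value of the members, -0.06 ± 0.062, from 56.4, 63.4 and 64.7 in the knockout, against 65.1, 66.2 and 61.7 in the wild type. Its product feeds protein prenylation rather than the sterol ring. None of these 5 genes passed the test.

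Knockout library 3 stood highest in the hippocampus for many members. It was the highest of the 6 libraries for 16 of the 26 genes, where it was the highest for 18.4% of all genes tested. Without it the median of the members was 0.046 and 19 of the 26 were above 0. Insig1 was then at 0.07, Msmo1 at 0.08 and Lss at 0.04, and Srebf2 and Insig2 changed side. Mvd was then at 0.29, Tm7sf2 at 0.25, Cyp51 at 0.16 and Sc5d at 0.12, close to their values with it. The mean log2 level over the 26 genes was 5.21, 5.18 and 5.29 in the knockout libraries, against 5.14, 5.14 and 5.15 in the wild-type ones, so the other knockout libraries also lay above the wild type. In the same libraries all 12 immediate early genes, induced in active neurons, were above 0 with a median log2 difference of 0.33, and their sum was 648 to 887 normalized CPM in the knockout and 503 to 748 in the wild type. Knockout library 3 had the highest sum. All 12 endothelium and pericyte markers were below 0 with a median of -0.21 and sums of 393 to 437 and 453 to 513, and 10 of the 11 tested markers of meninges and fibroblasts were below 0 with a median of -0.64 and sums of 85.5 to 94.1 and 94.2 to 180. None of these markers passed the test and none was at 0 in a group. Of the 10 astrocyte markers 7 were above 0 (median 0.051), with sums of 4578 to 5013 in the knockout and 4634 to 5209 in the wild type. Of the 13 oligodendrocyte and myelin markers 2 were above 0 and 11 below (median -0.043), with sums of 4882 to 7206 and 5346 to 7128. The sums of both lists overlapped between the genotypes, and none of their markers passed the test. The part of any of these cells in the members' values was not tested.

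**Figure D3:**
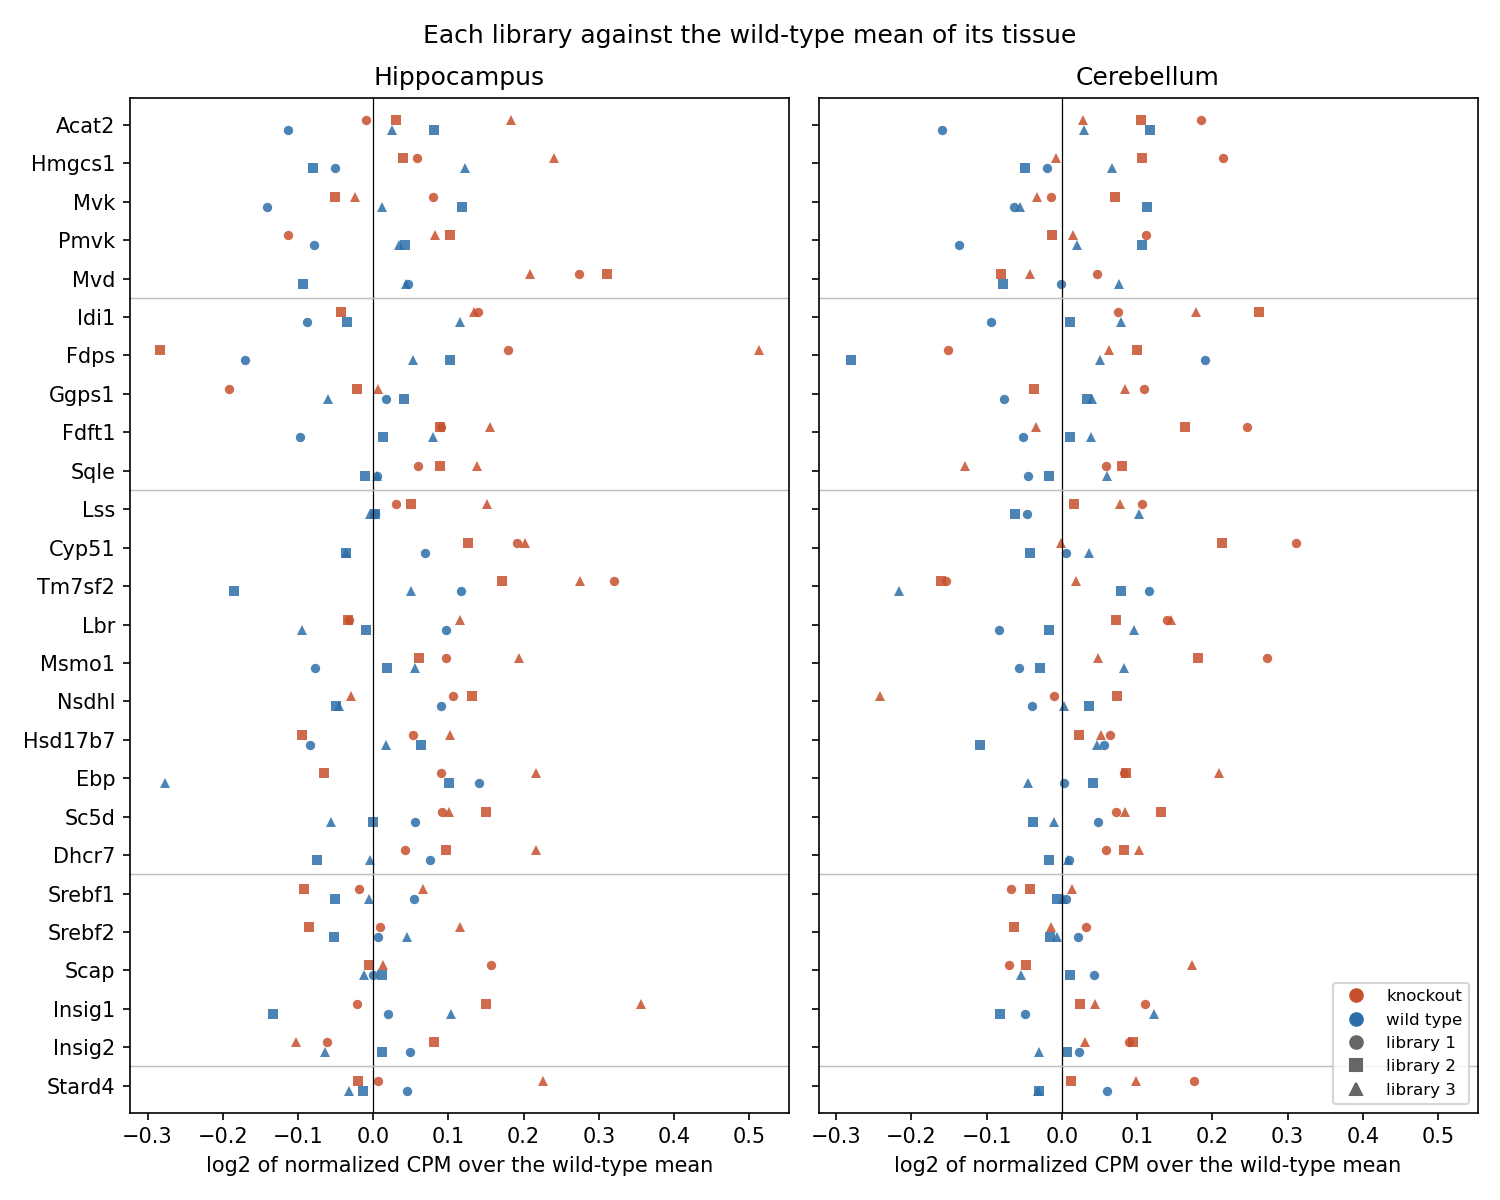
Each library of each gene as the log2 of its normalized CPM over the wild-type mean of the same tissue, for hippocampus (left) and cerebellum (right), with colour for genotype and shape for library number. In the hippocampus the red knockout points lie right of the blue wild-type points for 8 genes, and the triangles of knockout library 3 are the rightmost point for 16 of the 26.

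In the cerebellum the differences were of similar size and again none of the 26 genes passed, where 0.0113% of all 17733 genes did (2 genes). The members' adjusted p-values were 0.711 to 0.994 (edgeR). Of the 26 log2 differences 21 were above 0, where 51.0% of all genes were, and the median was 0.063 against 0.0025 over all genes. The ring and later sterol enzymes had 8 of 10 above 0 with a median of 0.089, the mevalonate enzymes 4 of 5 with 0.034, the isoprenoid and squalene enzymes 5 of 5 with 0.052 and the control genes 3 of 5 with 0.023. Insig2, Ebp, Dhcr7 and Sc5d were higher in each knockout library than in each wild-type library. These are 4 of the 26, where 6.48% of all genes had this pattern, and 0 showed the reverse, where 5.4% did. At an unadjusted p under 0.05, 2 were higher (Msmo1 and Cyp51), where 3.85% of all genes were, and 0 were lower, where 2.92% were. The number of genes at an unadjusted p under 0.05 was 1200, and DESeq2 called 36 genes and limma-voom 2, none of them a member.

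Msmo1 had the smallest unadjusted p in this tissue. It was at 47.6, 44.7 and 40.8 normalized CPM in the knockout cerebellum and 37.9, 38.6 and 41.7 in the wild type, with a log2 difference of 0.17 ± 0.068 (SE, unadjusted p = 0.0319, adjusted p = 0.711, edgeR). Cyp51 was at 65.7, 61.4 and 52.9 against 53.2, 51.4 and 54.3, with a log2 difference of 0.18 ± 0.074 (unadjusted p = 0.0359, adjusted p = 0.714, edgeR). Knockout library 3 overlapped the wild type for both genes, and the other knockout libraries lay above it. Idi1, the isomerase that starts isoprenoid assembly, was at 18.9, 21.5 and 20.3 against 16.8, 18.1 and 18.9, with a log2 difference of 0.17 ± 0.080. These 3 enzymes had the largest differences of the members here. With single libraries left out, Cyp51 ranged from 0.11, without knockout library 1, to 0.27, Msmo1 from 0.11 to 0.23 and Idi1 from 0.12 to 0.22.

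Sc5d was at 96.4, 100.5 and 97.2 normalized CPM in the knockout cerebellum and 94.9, 89.3 and 91.02 in the wild type, and Dhcr7, the reductase of the last step to cholesterol, was at 25.4, 25.8 and 26.2 against 24.6, 24.1 and 24.5. Their log2 differences were 0.10 ± 0.045 and 0.08 ± 0.057. On the other side Tm7sf2 was at 17.9, 17.9 and 20.2 against 21.6, 21.1 and 17.2, with a log2 difference of -0.10 ± 0.10. Nsdhl, a dehydrogenase that works with Msmo1, was at 13.3, 14.0 and 11.3 against 12.99, 13.7 and 13.4, with -0.05 ± 0.10. The groups overlapped for both.

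The SREBP genes were close to the wild type in this tissue as well. Srebf2 was at 168, 157 and 163 normalized CPM in the knockout cerebellum and 167, 162.5 and 163 in the wild type (log2 difference -0.01 ± 0.043). Srebf1 was at 64.8, 66.0 and 68.5 against 68.2, 67.6 and 68.0 (log2 difference -0.03 ± 0.045). Both pairs of groups overlapped. Insig1 was at 99.9, 94.05 and 95.4 against 89.4, 87.4 and 101, with a log2 difference of 0.06 ± 0.058. Insig2 was at 55.9, 56.1 and 53.7 against 53.4, 52.8 and 51.5, with 0.07 ± 0.048, and its groups did not overlap.

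Here knockout library 1 was the highest of the 6 libraries for 11 of the 26 genes, where it was the highest for 18.1% of all genes. Without it the median of the members was 0.053. With same-numbered libraries as blocks, the cerebellum comparison called 36 genes in all, and none of the 26 was among them. Of the 13 oligodendrocyte and myelin markers 11 were above 0 with a median log2 difference of 0.13, and their sum was 6486 to 7136 normalized CPM in the knockout and 5958 to 6357 in the wild type. Of the 10 oligodendrocyte precursor markers 8 were above 0 (median 0.12), with sums of 250 to 260 and 227 to 240. Of the 10 microglia markers 9 were above 0 (median 0.18), with sums of 147 to 159 and 127 to 135. The 12 endothelium and pericyte markers, 10 of them above 0 (median 0.099), summed to 534 to 566 and 508 to 527. The sums of these 4 lists did not overlap between the genotypes, while those of the lists that follow did. Astrocyte markers, 6 of 10 above 0 (median 0.011), summed to 3510.5 to 3764 in the knockout and 3555 to 3998 in the wild type. Neuron markers, 6 of 10 above 0 (median 0.0076), summed to 5331.5 to 5771.5 and 5455 to 5758.5. Brainstem neuron markers, 6 of 7 tested above 0 (median 2.5), summed to 58.6 to 105 and 62.1 to 68.9. All 9 choroid plexus markers were below 0, with sums of 26.9 to 1809 in the knockout and 1072 to 2714 in the wild type. Immediate early genes summed to 277 to 351 and 194.6 to 292, with 8 of the 11 tested above 0 (median 0.47). None of these markers passed the test and none was at 0 in a group, and their part in the members' values was not tested.

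**Figure D4:**
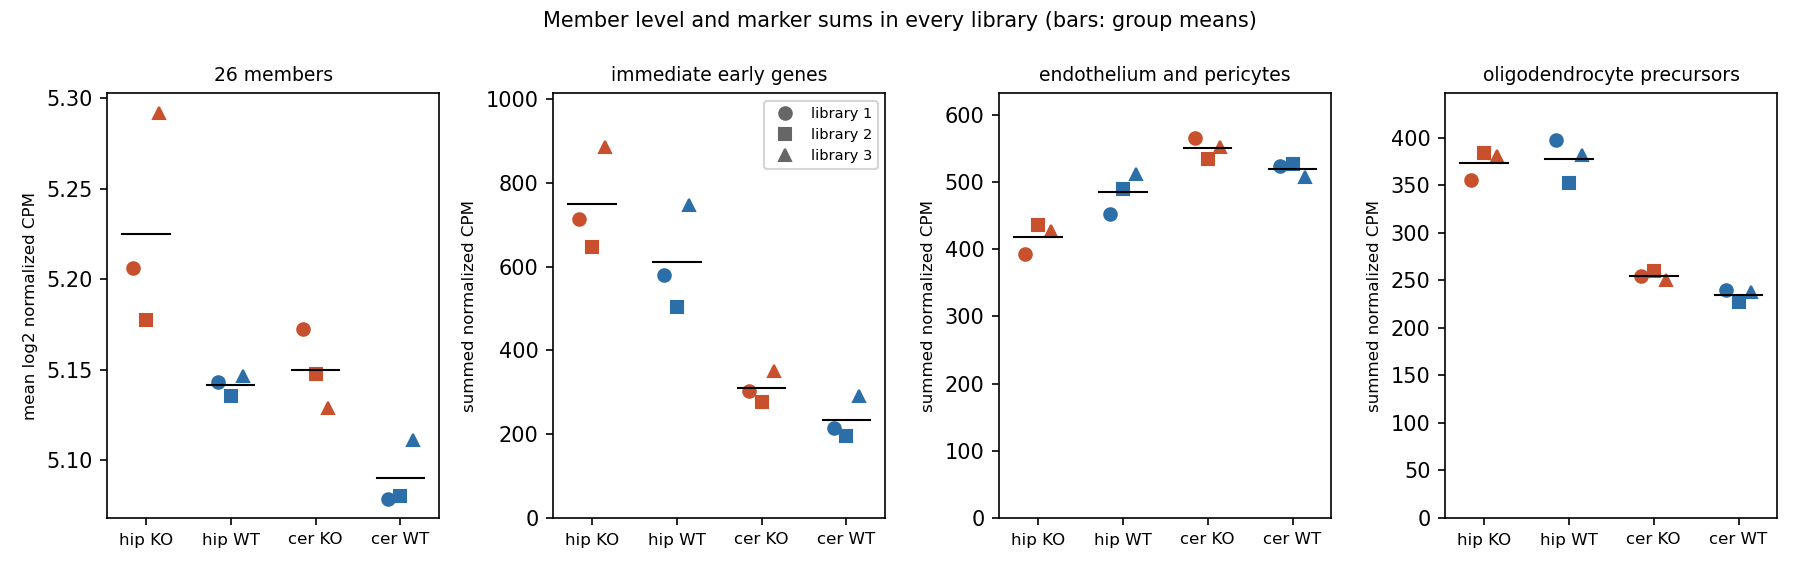
Mean log2 normalized CPM of the 26 genes (left) and summed normalized CPM of 3 marker lists in every library, by group, with bars for the group means and shapes for the library number; the left axis does not start at 0. Knockout library 3 of the hippocampus is the highest point for the 26 genes and for the immediate early genes.

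Across the tissues 19 of the 26 genes were above 0 in both genotype comparisons and 1, Srebf1, was below 0 in both. Of the 16593 genes tested in both, 27.0% were above 0 in both and 25.2% below. The comparisons share no library, but the same 6 mice gave both tissues. The difference between the genotype effects, hippocampus minus cerebellum, was tested over all 12 libraries. None of the 26 genes passed, where 0.0105% of 19027 genes did, and the smallest adjusted p of a member was 0.897 (edgeR). The members' differences of effect were 13 above 0 and 13 below, where 49.2% of all genes were above. Mvd had a difference of 0.29 ± 0.11 on the log2 scale (unadjusted p = 0.0167, edgeR). It was 0.27 higher in the knockout hippocampus and -0.02 in the cerebellum, where its libraries were at 17.3, 15.8 and 16.2 normalized CPM against 16.7, 15.8 and 17.6. Tm7sf2 had 0.35 ± 0.14 (unadjusted p = 0.0271, edgeR), and Sqle, which makes squalene epoxide, had 0.09 ± 0.081. At the other end were Ggps1 at -0.12 ± 0.085, Insig2 at -0.10 ± 0.078 and Lbr at -0.10 ± 0.105. With single libraries left out, Mvd ranged from 0.24 to 0.33 and Tm7sf2 from 0.26 to 0.45. The smaller values moved more: Sqle ranged from 0.026 to 0.13, Ggps1 from -0.16 to -0.062, Insig2 from -0.16 to -0.062 and Lbr from -0.15 to -0.049. For Cyp51 the difference was -0.01 ± 0.094. An unpassed threshold does not show that the tissues responded alike.

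**Figure D5:**
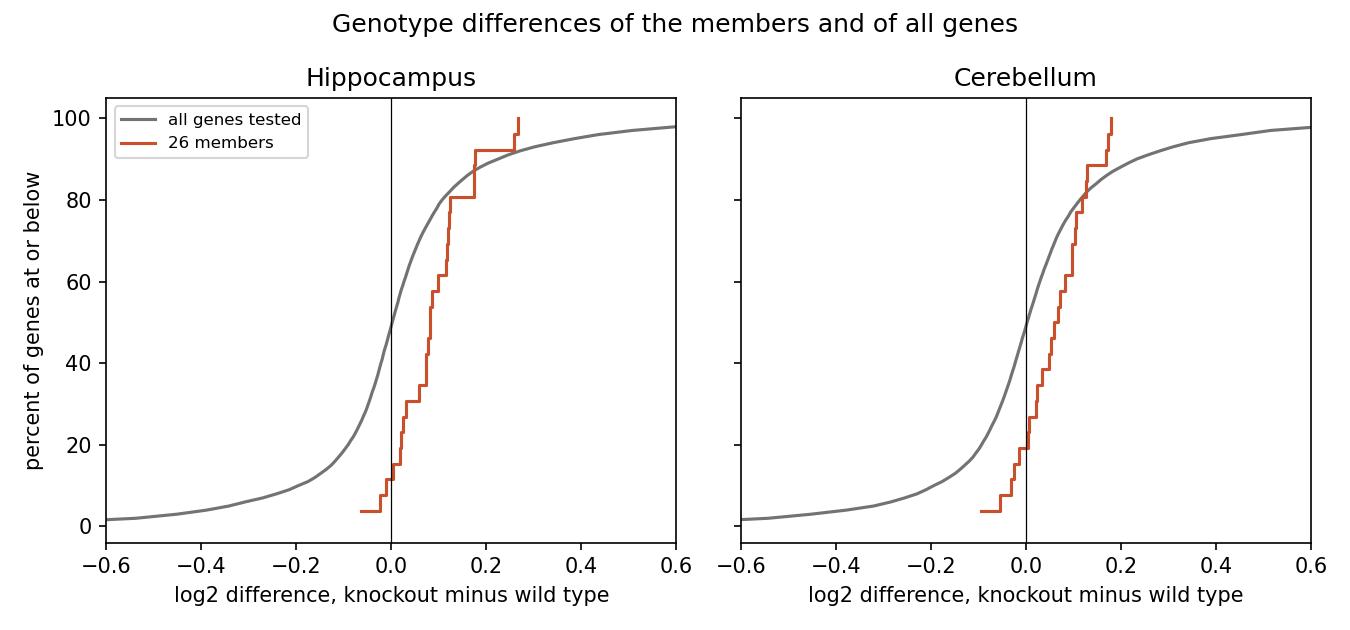
Cumulative share of genes at or below each log2 difference, knockout minus wild type, for all genes tested (grey) and for the 26 genes (red) in each tissue. The red steps lie right of the grey curve around zero, with a median of 0.081 for the hippocampus and 0.063 for the cerebellum, and end well inside the range of all genes.

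The neighbouring branches of sterol and lipid metabolism were followed as 5 further lists, and none of their genes passed between the genotypes in either tissue. The 16 fatty acid synthesis genes, the known targets of the Srebf1 product, had 10 of 16 above 0 in the hippocampus (median log2 difference 0.022) and 8 of 16 in the cerebellum (0.0017). Their smallest unadjusted p-values in the hippocampus were those of Acss2, which makes acetyl-CoA from acetate, at 0.15 ± 0.055 and Acacb, a carboxylase that curbs fatty acid oxidation, at -0.31 ± 0.12. In the cerebellum they were those of Acacb at -0.29 ± 0.13 and Scd1, a fatty acid desaturase, at 0.11 ± 0.056. The 14 genes of SREBP cleavage, its partners and sterol-regulated degradation had 5 of 14 above 0 in the hippocampus (median -0.029) and 6 of 14 in the cerebellum (-0.027). Examples are Nfya, an NF-Y subunit, at 0.13 ± 0.085 and Ubxn4 at 0.09 ± 0.061 in the hippocampus, and Erlin1, an endoplasmic reticulum protein of the degradation machinery, at 0.27 ± 0.078 and the NF-Y subunit Nfyc at -0.17 ± 0.055 in the cerebellum.

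The 14 genes of sterol export and turnover, which include Srebf1, had 6 of 14 above 0 in the hippocampus (median log2 difference -0.0041) and 8 of 14 in the cerebellum (0.060). In the hippocampus the liver X receptor Nr1h2 was at -0.14 ± 0.066 and Apod, a lipid carrier, at -0.24 ± 0.11. In the cerebellum Apod was at 0.12 ± 0.055 and the lipid transporter Abca7 at -0.11 ± 0.063. The 17 genes of sterol uptake, transport and storage had 9 of 17 above 0 in the hippocampus (median 0.011) and 8 of 17 in the cerebellum (-0.0030), with the sterol transporters Gramd1a at 0.10 ± 0.047 and Gramd1b at 0.08 ± 0.042 in the hippocampus. In the cerebellum Npc1, the exporter of lysosomal cholesterol, was at 0.08 ± 0.049 and the receptor Lrp8 at -0.06 ± 0.048. The 15 genes of the isoprenoid branch, which use the pathway's lipids outside the sterol ring, had 5 of 15 above 0 in the hippocampus (median -0.041) and 4 of 15 in the cerebellum (-0.020). Fntb, a farnesyltransferase subunit, was at 0.15 ± 0.068 and Rce1, a protease of prenylated proteins, at 0.19 ± 0.094 in the hippocampus. In the cerebellum Dhdds, of dolichol synthesis, was at -0.07 ± 0.051 and Icmt, the methyltransferase of prenylated proteins, at -0.10 ± 0.082.

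Between the tissues each of these lists held genes called in both directions, as did all genes tested, of which 33.1% were called higher and 33.0% lower in the wild-type hippocampus. In the wild type 5 of the 16 fatty acid synthesis genes were higher and 8 lower in the hippocampus, among them Fads2, a desaturase, at a log2 difference of 0.47, Elovl5, an elongase, at -0.51, Thrsp at -0.77 and Acacb at -1.15. Of the 14 SREBP processing and partner genes 4 were higher and 6 lower, with the NF-Y subunits Nfyb at 1.058 and Nfyc at -1.07, Ube2g2 at 0.74 and Sp1 at -0.70. Of the 14 export and turnover genes 4 were higher and 9 lower. Cyp46a1, the neuronal enzyme that turns cholesterol into its brain export form, was at 146 normalized CPM in the wild-type hippocampus and 35.6 in the cerebellum, a log2 difference of 2.04 ± 0.053. Cyp7b1, an oxysterol hydroxylase, was at 1.73, Abca7 at -2.02 and the liver X receptor Nr1h3 at -2.05. Of the 17 uptake and transport genes 6 were higher and 6 lower, with Scarb1, a lipoprotein receptor, at 1.70, Nceh1, a cholesterol ester hydrolase, at 0.64, Gramd1b at -0.61 and the receptor Vldlr at -0.68. Of the 15 isoprenoid branch genes 5 were higher and 6 lower. Icmt had the largest difference of that list, with 86.1 normalized CPM in the wild-type hippocampus and 604 in the cerebellum (log2 -2.81), followed by Fnta at -0.77, Coq2 at 0.53 and Nus1 at 0.53.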

How the data were processed

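RNA was extracted with TRIzol, and poly(A) RNA was made into strand-specific dUTP libraries, per the labels' protocols. Trimmomatic 0.39, STAR 2.7.10 and featureCounts 2.0.3 appear in the submitters' processing notes, beside mm10 and GRCm38 as builds. Neither annotation release nor strand setting was given in the sources used here. Raw counts, whole numbers whose totals varied by library, are the deposited values. Symbols came from GENCODE M21 (54409 of 54446 identifiers matched), and exon lengths from the union of its exons.

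Each comparison was fitted with edgeR 4.0.16 (filterByExpr, TMM, quasi-likelihood test, Benjamini-Hochberg adjustment over all genes tested, threshold 0.05) in R 4.3.3. The SE is the log2 difference divided by the square root of the F statistic. A hippocampus fit and a cerebellum fit compared genotypes, the difference of effects used all 12 libraries, and tissues were compared within each genotype. The members and gene lists were chosen with earlier results of these data known. Values are given for the 3 members with the smallest unadjusted p per direction and comparison, the SREBP and INSIG genes, and from each further list up to 4 genes that passed, otherwise the 2 with the smallest unadjusted p. Sc5d and Dhcr7 in the cerebellum were added after their values were seen.

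Whether these fits would call genotype differences as small as those of the members was not tested. Syt14, at a log2 difference of -0.39 in the hippocampus, had an unadjusted p of 3.88e-05 and an adjusted p of 0.686 (edgeR). The common coefficient of variation between libraries was 7.54% for hippocampus and 8.23% for cerebellum, so the precision rests on 3 libraries a group. Libraries of a group differed beyond sampling noise, with a chi-square per gene of 4.11 to 12.7, and none was counted as a duplicate. The tissues of 1 animal carry the same label number, so the animal was a block in an alternative for the tissue comparisons. Knockout and wild-type libraries share only a replicate number in the labels: same-numbered libraries deviated together in the cerebellum (correlations 0.182, 0.242 and 0.268), which meets the limit of 0.1 set for pairing, and in the hippocampus did not (-0.042, 0.092 and 0.279). Alternatives were DESeq2 1.42.0, limma-voom 3.58.1, DESeq-type size factors, other count filters, 1 fit of all libraries, blocks and leaving out each library.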

Additional observations from a re-analysis of the deposited data

How the results depend on the processing

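None of the 26 genes was called between the genotypes, or for the difference of effects, under any alternative run, and leaving out each library gave 19 to 23 members above 0 in the hippocampus and 18 to 20 in the cerebellum. Counts over all genes moved more. In the hippocampus they were 2 with DESeq2, 77 with no count filter, 2 with the replicate block and 0 to 2 with a library left out. In the cerebellum they were 36 with DESeq2, 417 with no filter, 4 with all 12 libraries in 1 fit, 36 with the replicate block and 2 to 33 with a library left out (33 without knockout library 3). For the difference of effects they were 9 with DESeq2, 275 with no filter and 2 to 44 with a library left out, and members above 0 ranged from 8, without hippocampus knockout library 3, to 17. Values near 0 changed side with a library left out: in the hippocampus Insig2 (-0.084 to 0.014), Srebf1 (-0.055 to 0.023) and Srebf2 (-0.037 to 0.062), in the cerebellum Nsdhl (-0.13 to 0.034) and Srebf2 (-0.039 to 0.0057), and in the difference Srebf1 (-0.026 to 0.055) and Srebf2 (-0.025 to 0.077). The cause was not tested. Over the alternatives 16 to 20 members were called between tissues in the wild type and 14 to 19 in the knockout, and the animal block left 20 and 18. The wild-type tissue median of 0.052 was 0.022 without cerebellum library 1, 0.031 without hippocampus library 2 and 0.10 without hippocampus library 1. The knockout one, 0.069, was 0.10 without hippocampus library 2.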
